A study of Mus musculus with 4 samples.

Results

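Sterol and fatty acid synthesis was followed through 28 genes by single-cell RNA sequencing of intestinal organoids from mice, in which stem cells, dividing cells and mature epithelial types grow together in culture. The genes were taken by symbol from a given list, not from their values, and all 28 were found among the 31040 genes of the deposited matrices. They fall into a sterol arm of 20 genes and a fatty acid arm of 8. All 28 passed the filter on low counts in the sum over all cells, where 13254 genes were tested, and in each of the 6 cell classes tested.

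The 2 knockout libraries lack Cbl and Cbl-b by label, and the 2 control libraries had no 4-hydroxytamoxifen. Organoids came from 2 mice, 10 weeks old, that carried floxed Cbl and Cbl-b alleles and R26Cre ERT2, a Cre recombinase that needs a ligand and is expressed from a locus active in most cell types. Knockout organoids had been replated with 400 nM 4-hydroxytamoxifen for 3 days and control organoids without it. There was 1 knockout and 1 control library per mouse (n = 2 per group), and a library's number, 1 or 2, was read as that of its mouse. The library titles give the number without naming the mouse, so the same mouse below means the same number. Control organoids carried the same alleles and the same Cre, so the drug and Cre activity cannot be told apart from the loss of Cbl and Cbl-b, ubiquitin ligases that tag receptor tyrosine kinases after activation. The comparison asks whether either arm differed between knockout and control organoids of the same mouse, and in which cells.

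Animal cells make cholesterol from acetyl-CoA through mevalonate, farnesyl diphosphate, squalene and lanosterol, and the same acetyl-CoA feeds fatty acid synthase. The transcription factors made from Srebf2 and Srebf1 raise the sterol and the fatty acid genes once they are released from the endoplasmic reticulum, where the Insig1 protein helps to hold them when sterols are plentiful. In the intestine, dividing crypt cells need new membrane, and absorptive enterocytes package lipid for export.

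RefSeq promoter windows (GRCm38.p6, 250 bases before to 50 after the transcription start) were matched for 21 of the 28 genes. The windows of Fasn (chr11:120824498-120824797, minus strand) and Elovl6 (chr3:129532136-129532435, plus strand) are shown because these genes passed the test for a difference. Those of Hmgcs1 (chr13:119690101-119690400, plus strand) and Insig1 (chr5:28071162-28071461, plus strand) are shown as sterol genes that hold a sterol regulatory element or an E-box. Each is written 5′ to 3′ on the strand of its gene. Capitals mark CCAAT on either strand, the sterol regulatory element searched as TCACNCCAC, and the E-box CACGTG.
Fasn: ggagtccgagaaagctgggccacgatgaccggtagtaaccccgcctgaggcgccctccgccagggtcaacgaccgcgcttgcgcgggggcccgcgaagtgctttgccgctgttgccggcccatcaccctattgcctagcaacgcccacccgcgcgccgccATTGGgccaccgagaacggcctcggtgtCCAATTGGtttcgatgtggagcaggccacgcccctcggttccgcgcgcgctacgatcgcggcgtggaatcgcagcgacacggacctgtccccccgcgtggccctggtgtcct
Elovl6: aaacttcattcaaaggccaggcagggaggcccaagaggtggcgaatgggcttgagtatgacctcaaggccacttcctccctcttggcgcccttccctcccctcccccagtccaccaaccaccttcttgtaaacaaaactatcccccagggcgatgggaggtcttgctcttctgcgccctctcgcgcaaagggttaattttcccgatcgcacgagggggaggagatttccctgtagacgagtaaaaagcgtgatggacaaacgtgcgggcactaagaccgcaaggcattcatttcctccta
Hmgcs1: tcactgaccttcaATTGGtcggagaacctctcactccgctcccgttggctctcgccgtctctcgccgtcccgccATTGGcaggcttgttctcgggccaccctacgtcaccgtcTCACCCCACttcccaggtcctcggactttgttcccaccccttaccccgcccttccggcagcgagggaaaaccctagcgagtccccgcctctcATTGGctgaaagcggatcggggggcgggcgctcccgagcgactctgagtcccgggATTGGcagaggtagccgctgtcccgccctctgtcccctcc
Insig1: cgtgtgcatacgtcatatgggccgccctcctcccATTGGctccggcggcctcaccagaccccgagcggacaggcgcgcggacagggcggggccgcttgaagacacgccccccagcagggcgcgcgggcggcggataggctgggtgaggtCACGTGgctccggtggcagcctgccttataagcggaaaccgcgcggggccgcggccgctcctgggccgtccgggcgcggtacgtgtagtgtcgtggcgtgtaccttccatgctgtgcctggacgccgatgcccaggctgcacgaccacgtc
The Fasn window held 3 CCAAT matches, a pair of them overlapping on opposite strands, and the Elovl6 window held none of these motifs. The Hmgcs1 window held 4 CCAAT matches and 1 sterol element, and the Insig1 window 1 CCAAT match and 1 E-box. Over both strands, CCAAT was found in 14 of 16 sterol and 3 of 5 fatty acid windows, against 37.4% of all 32851 windows and 43.3% of the 10128 tested genes with a window. TCACNCCAC was found in 1 sterol and 0 fatty acid windows, against 1.24% of all windows and 1.41% of those of tested genes, and the sterol window was that of Hmgcs1. CACGTG was found in 4 sterol and 0 fatty acid windows, against 7.15% of all windows and 11.7% of those of tested genes. The GC box GGGCGG, left in lower case, was found in 15 sterol and 3 fatty acid windows, against 35.7% of all windows and 67.8% of those of tested genes. A match describes the letters of the window and is neither a binding site nor a cause.

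The knockout libraries held 1702 and 1983 cell barcodes and the control libraries 1208 and 709, and 5365 of 5602 were retained. Knockouts 1 and 2 held 28597336 and 35592468 UMIs, which count distinct RNA molecules, against 27855911 and 22139560 in controls 1 and 2. Median depth was 16216.5 and 17495.5 UMIs per cell in knockouts against 19619 and 27709 in controls. Control 1 shared 1 barcode with each knockout library, and the other pairs shared 0. Cells fell into 16 clusters, named by markers as cycling-like, stem-like, goblet-like, enterocyte-like, Paneth-like and enteroendocrine-like, with tuft-like and unnamed cells left untested. Enterocyte-like cells made up 12.9% and 15.2% of cells in knockouts 1 and 2 against 20.8% and 38.4% in controls 1 and 2. Values are given as CPM, the UMIs of a gene per 1000000 UMIs of the same cells. Summed markers of immune, mesenchymal, endothelial and glial cells stood between 0.249 and 9.26 CPM in the 4 libraries, and erythroid markers were at 0. Cbl had 12.3 and 10.5 CPM in knockouts 1 and 2 against 17.1 and 19.98 CPM in controls 1 and 2, and Cblb 3.38 and 0.464 CPM in knockouts against 8.48 and 3.95 CPM in controls. Both fell in the edgeR test described below (−0.73 ± 0.13, adjusted p = 0.00799, and −1.995 ± 0.35, adjusted p = 0.00668). The position of the tags relative to the deleted exons is not given, and tags outside the deleted part check nothing.

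The sterol genes were mostly highest in enterocyte-like cells. Over the 6 classes, 13 of 20 sterol genes had their highest mean of 4 libraries there, 3 in goblet-like, 3 in cycling-like and 1 in enteroendocrine-like cells. Sc5d, a late sterol desaturase, ran from 107 to 125 CPM in the 4 enterocyte-like sums, above all values of the next class, goblet-like, at 61.1 to 91.6 CPM. Mvk (mevalonate kinase), Stard4 (a cholesterol carrier) and Hsd17b7 (a sterol ketoreductase) also stood clear of the next class in enterocyte-like cells, with means of 112, 233 and 77.8 CPM. Hmgcs1, the synthase of the mevalonate precursor HMG-CoA, was highest in goblet-like cells (mean 585 CPM, range 524 to 644) and next in Paneth-like cells (481 CPM, 397 to 536), with overlapping ranges. Acat2, the cytosolic thiolase at the entry to the pathway, and Idi1, which makes an isoprene unit, were highest in cycling-like cells (160.3 and 302 CPM). They were next highest in stem-like cells (140.4 and 298 CPM), again with overlapping ranges. The lowest mean of a sterol gene was in stem-like cells for 11 genes, in Paneth-like cells for 7 and in enteroendocrine-like cells for 2. CPM is a share of all UMIs, and 6 Paneth markers alone held 257300 to 326400 CPM in the Paneth-like sums. Levels of other genes there were not corrected for this share.

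The fatty acid genes did not share a single pattern across the classes. Scd1, the stearoyl-CoA desaturase that makes oleate (ENSMUSG00000037071, chr19:44394455-44407879 in GRCm38), averaged 484 CPM in enterocyte-like cells (292 to 674), and the next class, cycling-like, averaged 55.7 CPM. Fads1, a desaturase of polyunsaturated fatty acids (ENSMUSG00000010663, chr19:10182888-10196877), ran the other way. It had 0.778 to 3.73 CPM in enterocyte-like cells and a mean of 79.4 CPM in enteroendocrine-like cells, 28.9-fold the enterocyte-like mean. Its partner Fads2 was highest in cycling-like cells (22.1 CPM) and lowest in Paneth-like cells (7.26 CPM). Acly, which cuts citrate to acetyl-CoA, averaged 202 CPM in enteroendocrine-like and 25.7 CPM in enterocyte-like cells, and Fasn, the fatty acid synthase, 117 and 47.3 CPM. Elovl6, which lengthens palmitate, Scd2, a second stearoyl-CoA desaturase, and Srebf1 were highest in enterocyte-like cells, at 83.4, 627 and 45.7 CPM. Enterocyte-like cells thus had the highest Scd1, Scd2, Elovl6 and Srebf1 and the lowest Fads1, Fasn and Acly of the 6 classes. How reads that match both Scd1 and Scd2 were counted is not given in the sources used here.

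**Figure D1:**
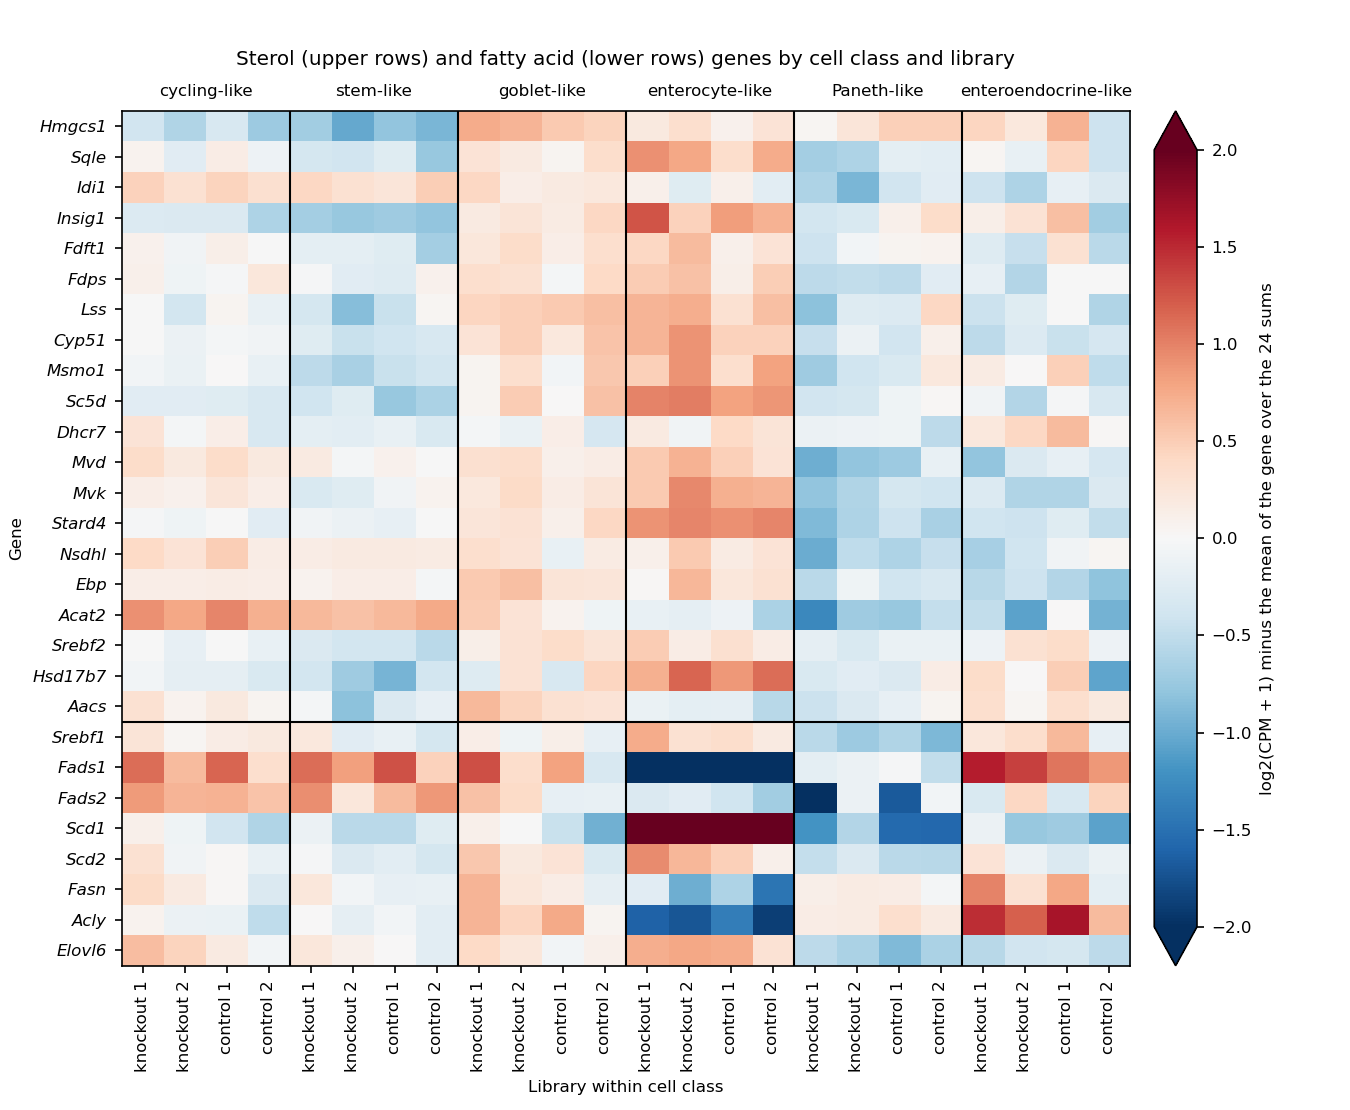
Level of each gene (rows) in each library of each cell class (columns, knockouts 1 and 2 left of controls 1 and 2 within a class), as log2(CPM + 1) minus the mean of that gene over the 24 sums, with colours limited to 2 in either direction. Scd1 is high and Fads1 low in all 4 enterocyte-like columns.

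The heat map of levels also shows that sterol rows tend to follow each other across columns more than fatty acid rows do. Over the 24 sums of 6 classes and 4 libraries, the median Pearson r was 0.535 between sterol genes (190 pairs), 0.0913 between fatty acid genes (28 pairs) and 0.242 between the arms (160 pairs). These sums share libraries, classes and depth, so r is a description. Mvk and Stard4 were the most alike pair (0.926), followed by Idi1 and Acat2 (0.908). Scd1 was most like Stard4 (0.878), Elovl6 most like Mvd (0.893), and Fasn and Acly most like each other (0.869). Differences between classes were not tested, since the classes come from the same cells. Scd1 alone of the 28 genes was among the 2000 variable genes used for clustering.

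In the sum over all cells, edgeR called no sterol gene in either direction, and called 3 of 8 fatty acid genes higher. UMIs were summed per library and tested two-sided with edgeR's quasi-likelihood test with the mouse as a block, and p-values were adjusted by Benjamini-Hochberg over all genes. A log2 fold change (± SE) is that of knockout over control, and a gene was called at an adjusted p under 0.05. Of 13254 genes, 7.2% were called higher and 10.9% lower. In such sums, fewer cells of a type and less RNA per cell cannot be told apart. The block leaves 1 residual degree of freedom, and edgeR draws the spread of a gene largely from the other genes. A p-value is therefore not a measure of how well that gene's own 4 libraries agree.

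The sterol arm summed to 2768 and 2841 CPM in knockouts 1 and 2 against 2794 and 3022 CPM in controls 1 and 2. The groups overlapped, and knockouts stood at 99.1% and 94.0% of the control of the same mouse. The edgeR test called 0 of 20 sterol genes, and DESeq2 with the block also called 0. At unadjusted p under 0.05 in edgeR stood 3 of the 20, beside 4353 of 13254 genes. The median log2 fold change was −0.10, with a range of −0.24 to 0.14, beside −0.01 over all genes tested. The 95% intervals of the 20 genes reached down to −0.43 and up to 0.34.

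By role, none of the sterol genes passed at any step. Hmgcs1 had 333 and 374 CPM in knockouts 1 and 2 against 368 and 374 CPM in controls 1 and 2 (−0.11 ± 0.09, adjusted p = 0.456), and the groups overlapped. Lss, which closes squalene epoxide to lanosterol, had the smallest adjusted p, with 46.4 and 46.5 CPM in knockouts against 50.3 and 57.2 CPM in controls (−0.24 ± 0.08, adjusted p = 0.0748). Both Lss knockout values lay below both control values. Sqle, the squalene epoxidase, had 129.6 and 125 CPM in knockouts against 133 and 148 CPM in controls (−0.18 ± 0.09, adjusted p = 0.199), also without overlap. Insig1, the SREBP anchor, had 112 and 118 CPM in knockouts against 124 and 133 CPM in controls (−0.20 ± 0.08, adjusted p = 0.135), again with both knockouts below both controls. In all, both knockouts lay below both controls for 5 of 20 sterol genes (25%), near the 19.2% of all genes. They lay above both controls for 1 of 20 (Nsdhl), beside 22% of all genes. Compared within each mouse, 12 of 20 sterol genes (60%) were below the control in both knockouts, beside 34.0% of all genes. Another 4 of 20 (20%) were above it in both, beside 39.6%. Of the other enzymes, Msmo1 (methylsterol oxidase) was at −0.21, Mvk at −0.17, Hsd17b7 at −0.16, Sc5d at −0.15, Fdps (farnesyl diphosphate synthase) at −0.09, Cyp51 (lanosterol demethylase) at −0.08 and Fdft1 (squalene synthase) at −0.06. The carrier gene Stard4 was at −0.17 and the regulator Srebf2 at −0.11. Dhcr7 (7-dehydrocholesterol reductase) and Mvd (mevalonate diphosphate decarboxylase) were just below level, at −0.0041 and −0.0044. The 5 positive sterol genes, Idi1, Nsdhl (a sterol dehydrogenase), Ebp (a sterol isomerase), Aacs (acetoacetyl-CoA synthetase) and Acat2, lay between 0.01 and 0.14.

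The fatty acid arm summed to 999 and 892 CPM in knockouts 1 and 2 against 878 and 733 CPM in controls 1 and 2, or 114% and 122% of the control of the same mouse. Fasn (ENSMUSG00000025153, chr11:120805846-120824547) had 104 and 86.6 CPM in knockouts 1 and 2 against 80.1 and 60.4 CPM in controls 1 and 2. Both knockouts lay above both controls, and Fasn rose (0.41 ± 0.08, adjusted p = 0.0114). Elovl6 (ENSMUSG00000041220, chr3:129532355-129638495) had 73.1 and 67.8 CPM in knockouts against 58.8 and 54.7 CPM in controls, again without overlap, and rose (0.28 ± 0.08, adjusted p = 0.0369). Fads1 had 67.9 and 44.3 CPM in knockouts 1 and 2 against 59.8 and 27.6 CPM in controls 1 and 2, so the groups overlapped and each knockout was above the control of its mouse. It rose in the fit with the mouse as a block (0.39 ± 0.12, adjusted p = 0.0485), but with control 2 left out, in a fit without the block, it was at −0.10. DESeq2 with the block called Fasn, but not Elovl6 or Fads1. With RLE scaling, and with all deposited barcodes, edgeR also kept the Fasn call and lost those of Elovl6 and Fads1. In all, 4 of 8 fatty acid genes had both knockouts above both controls (Fasn, Elovl6, Fads2 and Scd2), beside 22% of all genes. Fads2 (0.31 ± 0.11, adjusted p = 0.0822), Acly (0.21 ± 0.10, adjusted p = 0.194) and Scd2 (0.17 ± 0.09, adjusted p = 0.208) did not pass. The arm's median log2 fold change was 0.245. Srebf1 had 41.2 and 34.6 CPM in knockouts against 38.0 and 36.2 CPM in controls (−0.01 ± 0.09, adjusted p = 0.948), with overlapping groups.

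Scd1 depended on which cells were summed. Over all cells it had 91.4 and 119 CPM in knockouts 1 and 2 against 98.3 and 98.1 CPM in controls 1 and 2, and the groups overlapped (0.05 ± 0.10, adjusted p = 0.771). Without enterocyte-like cells, in which Scd1 was highest and which were a smaller share of both knockout libraries, it was called higher (0.51 ± 0.07, adjusted p = 0.0157), beside 1.18% of all genes. In that sum Fasn (0.31, adjusted p = 0.0584), Elovl6 (0.34, adjusted p = 0.0515) and Fads1 (0.20, adjusted p = 0.287) were not called. Without the mouse as a block, edgeR called 0 of 13254 genes (1124 at unadjusted p under 0.05), and Fasn, Elovl6 and Fads1 had adjusted p of 0.561, 0.561 and 0.796.

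**Figure D2:**
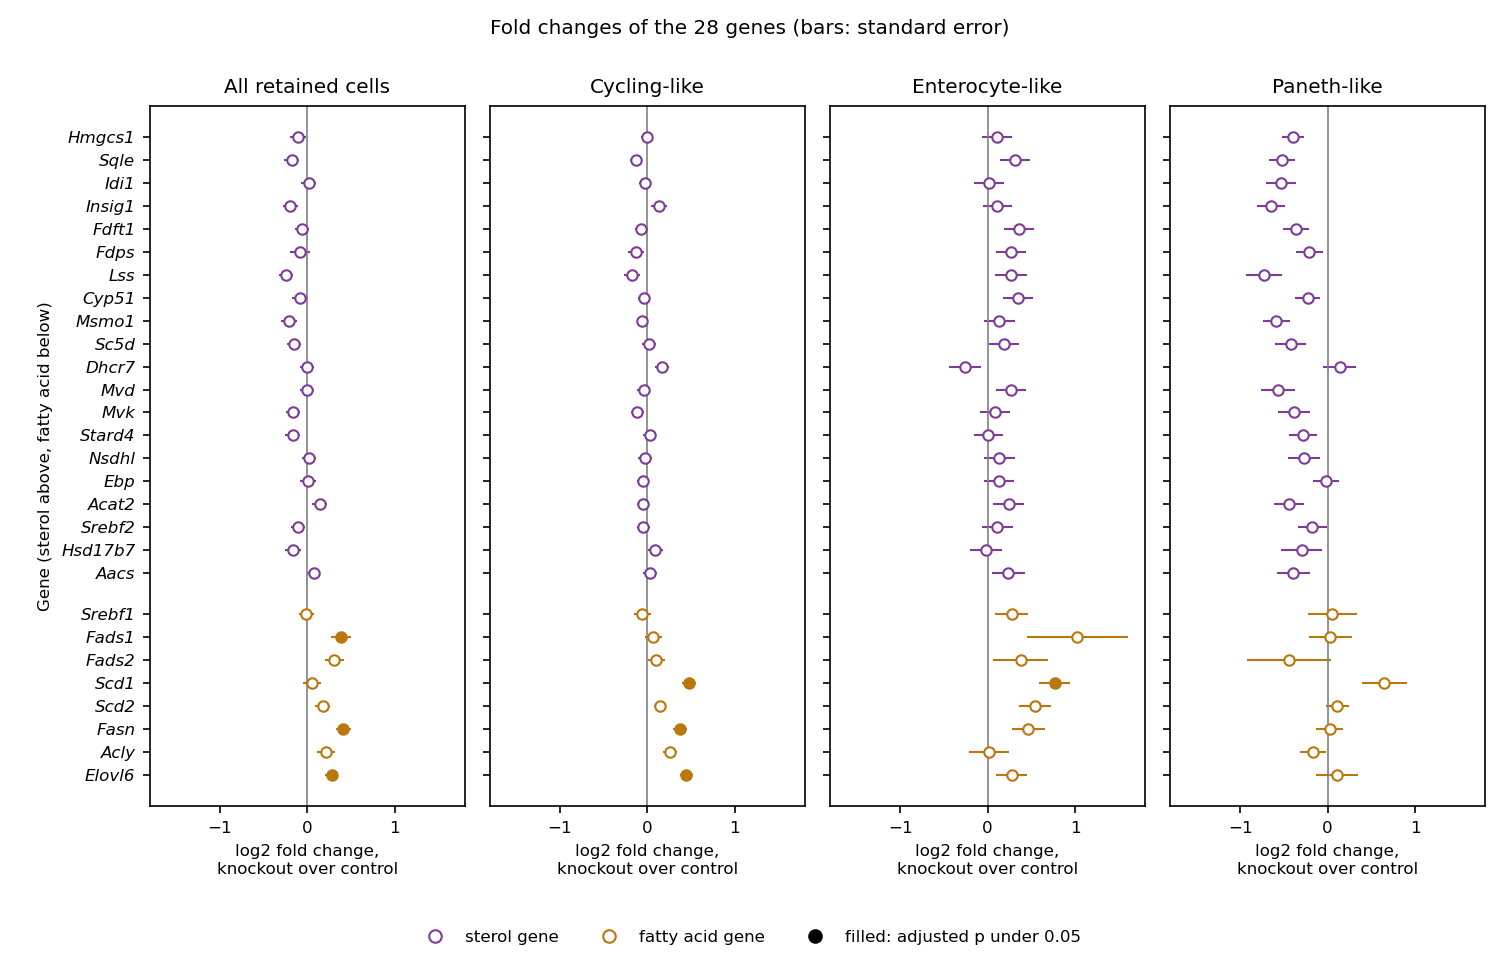
Log2 fold change of the 28 genes (points, knockout over control, bars ± SE) in all cells and in cycling-like, enterocyte-like and Paneth-like cells, with filled points at an adjusted p under 0.05. The filled points are Fads1, Fasn and Elovl6 in all cells, Scd1, Fasn and Elovl6 in cycling-like cells and Scd1 in enterocyte-like cells, and 19 of 20 sterol points lie below 0 in Paneth-like cells.

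Within cell classes, Scd1 rose in cycling-like, goblet-like and enterocyte-like cells, and Fasn and Elovl6 rose in cycling-like cells. These calls rest on edgeR with the block. DESeq2 with the block called none of these 5, with adjusted p of 0.234, 0.273 and 1 for Scd1 in the 3 classes, 0.363 for Fasn and 0.225 for Elovl6. Without the block, edgeR called none of the 5 either (adjusted p 0.515 to 1), and the goblet-like call of Scd1 was also lost at Leiden resolution 2 (adjusted p = 0.0626). At that resolution the goblet-like class held fewer cells, 50 and 164 in knockouts 1 and 2 against 71 and 60 in controls 1 and 2. In cycling-like cells (494 and 660 knockout cells against 282 and 154 control cells) Scd1 had 69.7 and 61.1 CPM in knockouts 1 and 2 against 49.6 and 42.4 CPM in controls 1 and 2. Every knockout value lay above every control value (0.47 ± 0.08, adjusted p = 0.0143). Elovl6 had 82.1 and 72.8 CPM in knockouts against 60.0 and 50.9 CPM in controls, without overlap (0.44 ± 0.08, adjusted p = 0.0164). Fasn had 104 and 90.9 CPM in knockouts against 81.5 and 65.9 CPM in controls, also without overlap (0.37 ± 0.08, adjusted p = 0.0281). Acly had 86.3 and 75.3 CPM in knockouts against 74.4 and 57.4 CPM in controls and did not pass (0.26 ± 0.08, adjusted p = 0.108). The edgeR test called 3 of 8 fatty acid genes higher, beside 1.83% of 11399 genes. Both knockouts lay above both controls for 4 of 8, beside 24.2%. Scd2, Fads2, Fads1 and Srebf1 were at 0.14, 0.10, 0.07 and −0.06. Cluster c3, which held 355 of the 660 cells in knockout 2 and had no cycling marker among its top 10 genes, was left out in a further fit. Scd1, Fasn and Elovl6 were called there too, with Acly (0.27 ± 0.08, adjusted p = 0.0356), beside 5.08% of all genes.

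In goblet-like cells (165 and 419 knockout cells against 193 and 157 control cells) Scd1 had 69.8 and 64.4 CPM in knockouts 1 and 2 against 47.5 and 32.9 CPM in controls 1 and 2. The groups did not overlap, and Scd1 rose (0.70 ± 0.15, adjusted p = 0.031), as 1 of 8 fatty acid genes, beside 1.8% of 10931 genes called higher. Both knockouts lay above both controls for 4 of 8 (Scd1, Fads2, Fasn and Elovl6), beside 20.8% of all genes. Fasn had 129 and 93.9 CPM in knockouts against 88.7 and 71.1 CPM in controls (0.40 ± 0.12, adjusted p = 0.0869). Fads1 (0.50 ± 0.14, adjusted p = 0.0686) and Fads2 (0.60 ± 0.19, adjusted p = 0.11) did not pass. Cluster c11, led by Zg16, Clu and Anxa1, held 144 of 419 cells in knockout 2 and 65 of 157 in control 2, against 10 of 165 in knockout 1 and 13 of 193 in control 1. Without it Scd1 and Fads1 were called higher, beside 8.53% of all genes, and 1 of 20 sterol genes lower (Insig1 −0.28 ± 0.10, adjusted p = 0.0492), near the 6.83% of all genes.

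In enterocyte-like cells (211 and 289 knockout cells against 239 and 262 control cells) Scd1 had 531 and 674 CPM in knockouts 1 and 2 against 439 and 292 CPM in controls 1 and 2. Both knockouts lay above both controls, at 121% and 230.5% of the control of the same mouse, and Scd1 rose (0.77 ± 0.18, adjusted p = 0.00242). It was 1 of 8 fatty acid genes called, beside 1.13% of 9791 genes called higher. Scd2 had 809.7 and 665 CPM in knockouts against 583 and 449 CPM in controls, also without overlap, and did not pass (0.54 ± 0.18, adjusted p = 0.103). Both knockouts lay above both controls for 3 of 8 fatty acid genes (Scd1, Scd2 and Fads2) and 7 of 20 sterol genes, beside 9.83% of all genes. The largest cluster of the class differed between libraries. Cluster c10 held 97 of 211 cells in knockout 1, c1 held 227 of 289 in knockout 2 and 218 of 262 in control 2, and c13 held 100 of 239 in control 1.

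Read cluster by cluster, Scd1 was above the control of the same mouse in both knockouts in 9 of 9 clusters of these 3 classes. The clusters share the same 4 libraries and are not replicates, and Scd1 was among the genes used for clustering. Some pairs are small: in c11, knockout 1 had 10 cells and 7 Scd1 UMIs against 13 cells and 12 UMIs in control 1. Both knockouts were also above their controls for Fasn in 8 clusters, for Scd2 in 7, and for Elovl6 and Fads1 in 5 each. In c1, Scd1 had 598 and 762 CPM in knockouts 1 and 2 against 317 and 300.5 CPM in controls 1 and 2. In c13, which Fabp1 leads, it had 1089.8 and 1611 CPM in knockouts against 858 and 619 CPM in controls. These c13 values rest on 48 and 11 knockout cells against 100 and 16 control cells. In c10 Scd1 had 141 and 207 CPM in knockouts against 104 and 159 CPM in controls. The knockouts were on the higher side of their controls in each of these 3 clusters. In the goblet-like cluster c4 Scd1 had 53.3 and 80.7 CPM in knockouts against 41.7 and 40.7 CPM in controls. In c9 it had 79.1 and 78.2 CPM in knockouts against 54.8 and 58.3 CPM in controls.

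Markers of several cell types moved along with these classes. In cycling-like cells, Paneth markers summed to 414 and 449.5 CPM in knockouts 1 and 2 against 804 and 1002 CPM in controls 1 and 2. Goblet markers there summed to 257 and 393 CPM in knockouts 1 and 2 against 308 and 518 CPM in controls 1 and 2. Both sums were lower in the knockout of both mice. Stem markers were 4471 and 1981 CPM in knockouts 1 and 2 against 3793 and 1586 CPM in controls 1 and 2. Cycling markers were 3393 and 2776 CPM in knockouts 1 and 2 against 3173 and 2584 CPM in controls 1 and 2, and enterocyte markers 416 and 364 CPM in knockouts 1 and 2 against 371 and 252 CPM in controls 1 and 2. These 3 sums were higher in the knockout of both mice. In goblet-like cells, cycling markers were 1717 and 1310.0 CPM in knockouts 1 and 2 against 1066 and 651 CPM in controls 1 and 2, higher in the knockout of both mice. Paneth markers there were 44740 and 48630 CPM in knockouts 1 and 2 against 69880 and 50170 CPM in controls 1 and 2, lower in both. Goblet markers of the same cells were 25980 and 30820 CPM in knockouts 1 and 2 against 32980 and 27860 CPM in controls 1 and 2. These goblet sums lay below the Paneth sums in each library, so the class is mixed by its markers. Cluster c9, led by Atoh1, held 44.2% and 29.4% of goblet-like cells in knockouts 1 and 2 against 29.0% and 11.5% in controls 1 and 2. Enterocyte markers in goblet-like cells, at 666 and 783 CPM in knockouts 1 and 2 against 421 and 962 CPM in controls 1 and 2, were higher in the knockout of mouse 1 and lower in that of mouse 2. In enterocyte-like cells enterocyte markers were 36740 and 49570 CPM in knockouts 1 and 2 against 36940 and 56020 CPM in controls 1 and 2, lower in the knockout of both mice, and goblet markers 156 and 227 CPM in knockouts 1 and 2 against 139.7 and 135 CPM in controls 1 and 2, higher in both. The part of these marker shifts in the Scd1, Fasn and Elovl6 values was not tested.

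**Figure D3:**
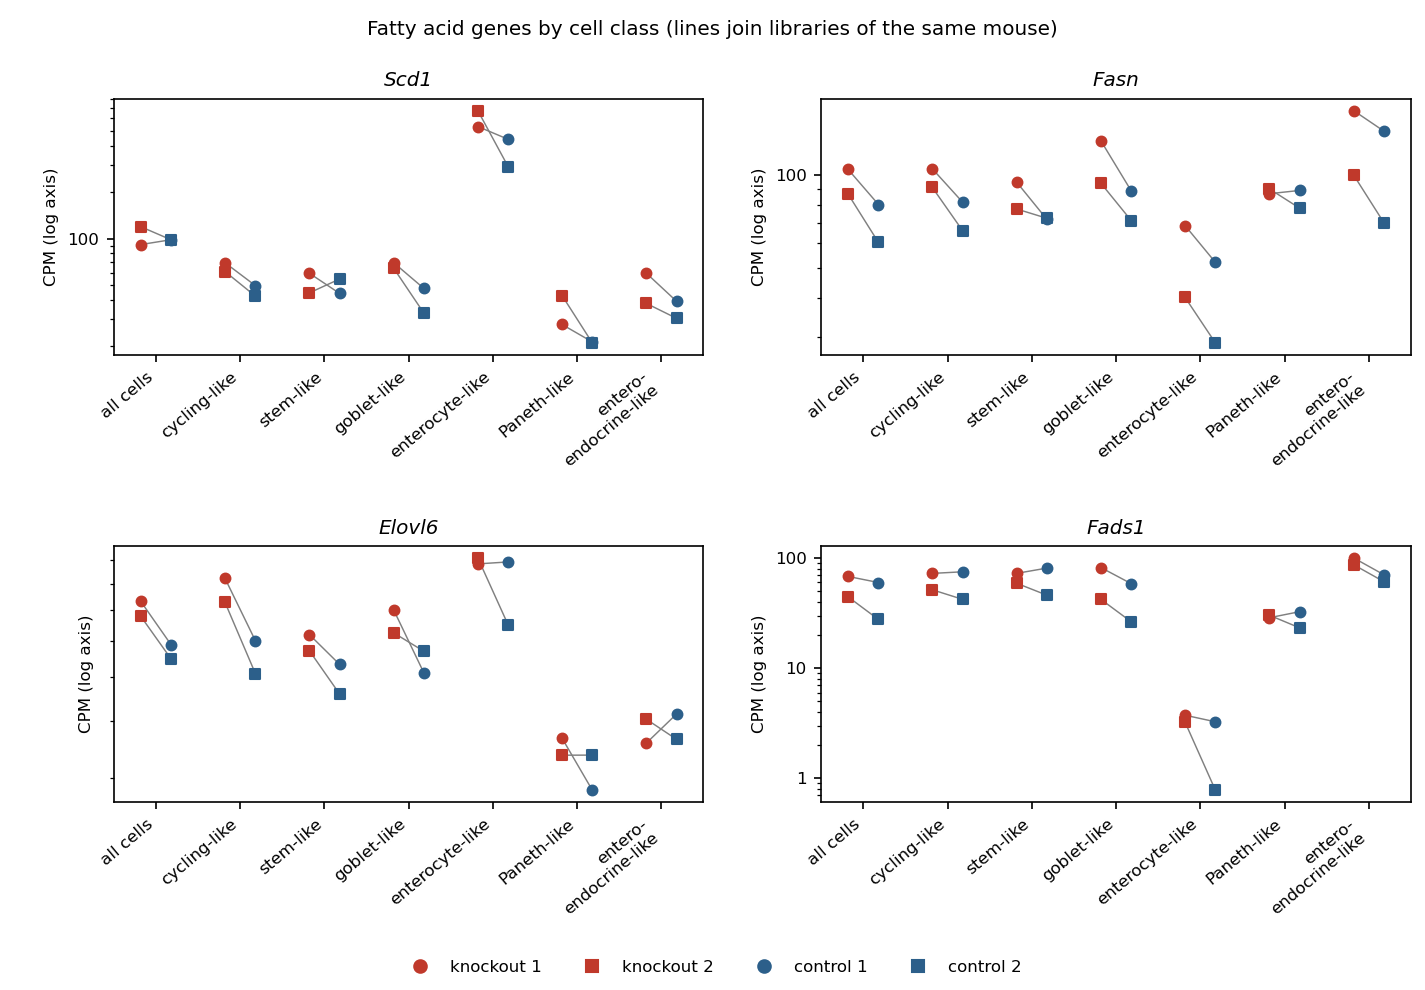
CPM on a log axis of Scd1, Fasn, Elovl6 and Fads1 in all cells and in each class, with 1 point per library (red, knockout, left; blue, control, right; circles, number 1; squares, number 2) and lines joining the libraries of a mouse. The knockout point is the higher of each joined pair for Scd1 in cycling-like, goblet-like and enterocyte-like cells, and Fads1 is lowest in enterocyte-like cells.

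In stem-like, Paneth-like and enteroendocrine-like cells, 0 of 8 fatty acid genes were called by edgeR. Genes called in either direction made up 1.96% in stem-like, 0.0758% in Paneth-like and 0.771% in enteroendocrine-like cells. At unadjusted p under 0.05 stood 0, 1 and 0 of the 8 genes, beside 1068 of 9732, 682 of 6595 and 464 of 8167 genes. DESeq2 called 0, 0 and 0 of the 8. In Paneth-like cells Scd1 had 27.8 and 42.7 CPM in knockouts against 21.4 and 21.1 CPM in controls, without overlap (0.65 ± 0.25, adjusted p = 0.437). In stem-like cells it had 59.6 and 44.5 CPM in knockouts 1 and 2 against 44.1 and 54.7 CPM in controls 1 and 2, above the control in mouse 1 and below it in mouse 2, where the control had 15 cells. In enteroendocrine-like cells it had 59.7 and 38.0 CPM in knockouts against 39.2 and 30.4 CPM in controls, and control 2 had 11 cells. The summed fatty acid arm was above the control of the same mouse in both knockouts in each of the 6 classes. Knockouts 1 and 2 stood at 114% and 104% of their controls in stem-like, 101% and 118% in Paneth-like and 128% and 172% in enterocyte-like cells. A few genes weigh most in such sums, and Scd2 alone averaged 304 CPM in Paneth-like cells. By gene, 5, 3 and 4 of 8 were higher in both mice in stem-like, Paneth-like and enteroendocrine-like cells, beside 35.6%, 32.2% and 33.1% of all genes. In the same order, 0, 2 and 0 were lower in both, beside 21.6%, 22.1% and 19.3%.

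**Figure D4:**
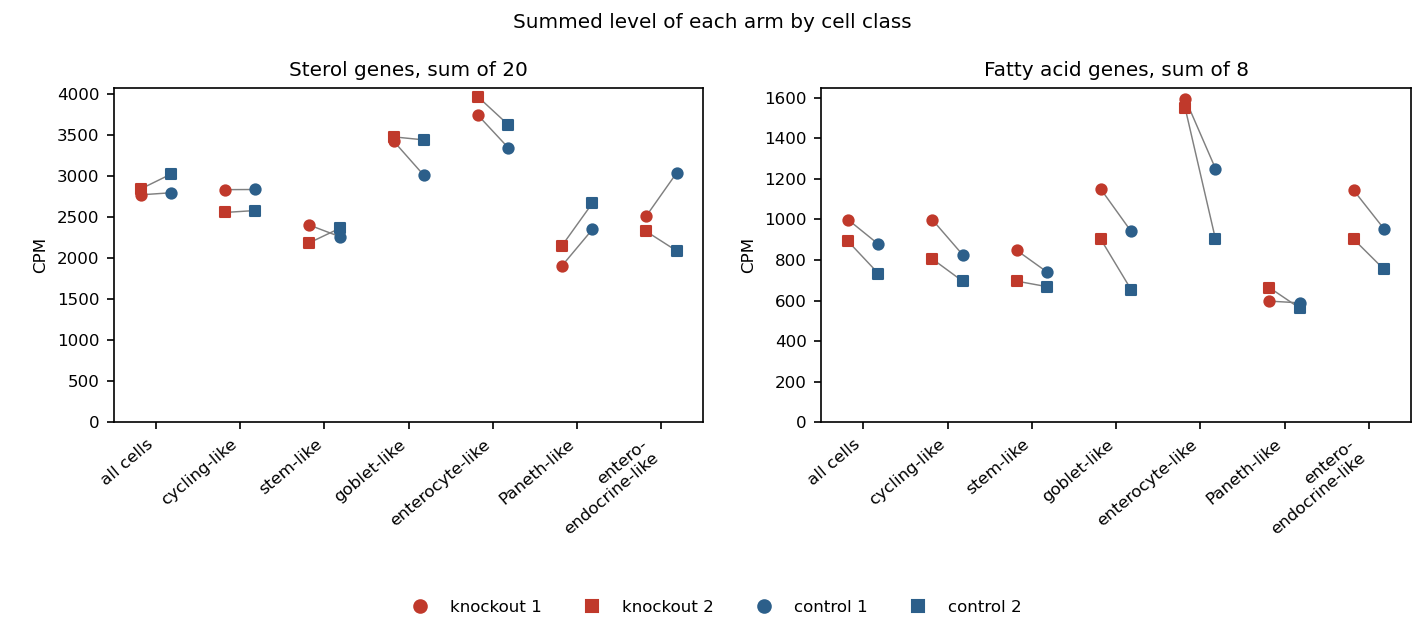
Summed CPM of the 20 sterol genes (left panel) and the 8 fatty acid genes (right panel) in all cells and in each class, with 1 point per library (red, knockout, left; blue, control, right; circles, number 1; squares, number 2) and lines joining the libraries of a mouse. The knockout is the higher of each fatty acid pair in all 6 classes, while for sterol genes it is the lower in Paneth-like and the higher in goblet-like and enterocyte-like cells.

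The sterol arm had no gene called in any of the 6 classes, by edgeR or by DESeq2 with the block, and the plot of arm sums shows that its side was not the same in all of them. In cycling-like cells it summed to 2831 and 2554 CPM in knockouts 1 and 2 against 2833 and 2577 CPM in controls 1 and 2, close to level within each mouse. There 0 of 20 genes had an unadjusted p under 0.05 in edgeR, beside 2309 of 11399 genes. DESeq2 called 0 sterol genes, and their median log2 fold change was −0.04. In enterocyte-like cells the arm summed to 3740.3 and 3964 CPM in knockouts 1 and 2 against 3344 and 3623 CPM in controls 1 and 2. The log2 fold change was positive for 18 of 20 genes (median 0.13), against 50.5% of all genes. An unadjusted p under 0.05 was reached by 860 of 9791 genes and by 2 of the 20 sterol genes. These were Fdft1 (0.36 ± 0.17, adjusted p = 0.481) and Cyp51 (0.35 ± 0.17, adjusted p = 0.535). Cyp51 had 314 and 365 CPM in knockouts against 271 and 269.7 CPM in controls, without overlap. In goblet-like cells the arm summed to 3423 and 3474 CPM in knockouts 1 and 2 against 3006 and 3438 CPM in controls 1 and 2, with a median of −0.02. Acat2 was nearest to the threshold there, with 126 and 108 CPM in knockouts against 92.6 and 83.0 CPM in controls (0.34 ± 0.12, adjusted p = 0.131). In stem-like and enteroendocrine-like cells the sum was above the control in 1 mouse and below it in the other, with medians of −0.02 and −0.16.

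In Paneth-like cells, which guard the crypt base with antimicrobial granules, most sterol genes were lower in both knockouts, though none passed the test. The arm summed to 1905 and 2150.1 CPM in knockouts 1 and 2 against 2347 and 2666 CPM in controls 1 and 2. Within each mouse the knockout stood at 81.2% and 80.6% of its control. Exact 95% intervals were 1825 to 1988 and 2086 to 2216 CPM in knockouts 1 and 2 against 2259.6 to 2436 and 2563 to 2772 CPM in controls 1 and 2, and they cover counting error only. The log2 fold change was negative for 19 of 20 genes, with a median of −0.39 beside −0.01 over 6595 genes. Both knockouts lay below both controls for 11 of 20, beside 12.8% of all genes. The edgeR test called 0, with 10 of 20 at unadjusted p under 0.05, beside 682 of 6595 genes. DESeq2 with the block called 0. Insig1 had 95.8 and 99.6 CPM in knockouts against 132 and 159 CPM in controls (−0.65 ± 0.16, adjusted p = 0.277). Hmgcs1 had 397 and 455 CPM in knockouts against 536 and 536 CPM in controls (−0.40 ± 0.13, adjusted p = 0.363). Msmo1 had 153 and 191 CPM in knockouts against 203 and 291 CPM in controls (−0.58 ± 0.15, adjusted p = 0.294). Neither these 3 nor Sqle (−0.52 ± 0.15, adjusted p = 0.331) overlapped between the groups. Dhcr7 alone was positive (0.14 ± 0.19, adjusted p = 0.842).

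The Paneth-like class is small (78 and 121 knockout cells against 60 and 31 control cells), and its calls depended on the clustering. At a finer clustering (Leiden resolution 2) the Paneth-like clusters held 109 and 152 knockout cells against 110 and 54 control cells, and 4 of 20 sterol genes were called lower, beside 1.37% of 8203 genes. That class joined a cluster led by defensin genes and a cluster led by Ccl6, Ramp1, Ccl9 and Spink4 together with Paneth genes. The Ccl6 cluster held 48 and 55 of the cells in knockouts 1 and 2 against 67 and 33 in controls 1 and 2, a larger part of both controls, and the part of this difference in the calls was not tested. The 4 sterol genes called lower were Insig1 (−0.60 ± 0.14, adjusted p = 0.00238), Lss (−0.71 ± 0.17, adjusted p = 0.00396), Msmo1 (−0.49 ± 0.14, adjusted p = 0.0211) and Idi1 (−0.47 ± 0.14, adjusted p = 0.0328). Insig1 had 120.5 and 124 CPM in knockouts against 148 and 232 CPM in controls in these cells. The sterol sums were 2235 and 2344 CPM in knockouts 1 and 2 against 2553 and 3352 CPM in controls 1 and 2, with control 2 farthest from the rest. In the class as first defined, Paneth markers summed to 326400 and 257300 CPM in knockouts 1 and 2 against 300100 and 289400 CPM in controls 1 and 2, higher in the knockout of mouse 1 and lower in that of mouse 2, and their part in the sterol values was not tested.

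Whether the knockout effect itself differed between classes was tested as an edgeR interaction term, each library forming a block, and 0 of 28 genes passed in any of 4 pairs of classes (smallest adjusted p = 1). Genes called made up 0% for enterocyte-like minus cycling-like, 0% for goblet-like minus cycling-like, 0.0106% for enterocyte-like minus Paneth-like and 0.0299% for goblet-like minus Paneth-like. In that order, 0, 0, 3 and 2 sterol genes and 0, 1, 0 and 0 fatty acid genes had an unadjusted p under 0.05. Over all genes, 420 of 11663, 368 of 11745, 367 of 9471 and 241 of 10025 did. With limma-voom, 0 of the 28 genes passed in any pair. The Scd1 effect in enterocyte-like cells minus that in cycling-like cells was 0.23 (95% interval −0.45 to 0.90), and goblet-like minus cycling-like 0.21 (95% interval −0.26 to 0.68). For Sqle, enterocyte-like minus Paneth-like was 0.79 (95% interval 0.08 to 1.504). The difference was positive for 19 of 20 sterol genes in that pair, with a median of 0.51 beside −0.02 over all genes. The pairs with Paneth-like cells were chosen after the class values were seen. This count therefore largely restates the signs already given for each class.

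Among other genes of these pathways, 8 of 10 genes of fatty acid oxidation and 5 of 9 genes of sterol export and LXR targets fell over all cells, beside 10.9% of all genes. Acaca, the acetyl-CoA carboxylase before Fasn, had 28.1 and 27.5 CPM in knockouts against 28.4 and 20.6 CPM in controls and did not pass (0.16 ± 0.12, adjusted p = 0.402). Of 19 further genes of sterol synthesis, uptake and control, 2 rose, beside 7.2% of all genes, and 3 fell, beside 10.9%. Both counts are near those shares. The sterol reductase gene Lbr (0.34) was among those that rose. Among those that fell were Soat2, which esterifies cholesterol (−1.14), and Npc1l1, which takes it up (−1.08). The export and LXR genes that fell were Abcg8 −1.02, Abcg5 −0.95, Nr1h3 −0.67, Lpcat3 −0.43, Nr1h2 −0.35, and Abcg5 and Abcg8 form the sterol exporter of the enterocyte brush border. Of 20 further genes of fatty acid synthesis and activation, 5 fell (Dgat1 −1.22, Dgat2 −1.17, Mlxipl −0.53, Me1 −0.44, Acsl5 −0.40). The oxidation genes that fell included Ppara −1.40, Acadl −0.57, Cpt1a −0.50, Cpt2 −0.49, Acadvl −0.35, Acadm −0.35 and Hadha −0.33, and 0 rose. Summed enterocyte markers stood at 2514 and 5352 CPM in knockouts 1 and 2 against 5364 and 13500 CPM in controls 1 and 2, lower in the knockout of both mice. The part of this in the falls was not tested. Oxidation genes had a positive fold change for 0 of 10 in cycling-like, 0 of 9 in goblet-like and 1 of 8 in stem-like cells. It was positive for 3 of 9 in enterocyte-like, 1 of 7 in Paneth-like and 3 of 8 in enteroendocrine-like cells. Over all genes, 46.4% to 50.5% were positive in these classes.

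Within enterocyte-like cells, 0 genes of these 4 lists fell, beside 0.776% of all genes. The lists held 19 sterol, 7 export and LXR, 19 fatty acid synthesis and activation, and 9 oxidation genes tested there. Acsl3, a long-chain acyl-CoA synthetase, rose there (0.77 ± 0.19, adjusted p = 0.00585), with 66.6 and 44.2 CPM in knockouts against 40.4 and 25.9 CPM in controls. It was the only gene of the 4 lists called higher, beside 1.13% of all genes. In cycling-like cells the triglyceride synthesis genes Dgat1 (−0.54 ± 0.10, adjusted p = 0.0164) and Dgat2 (−0.85 ± 0.18, adjusted p = 0.0344) fell, beside 2.51% of all genes. They were 2 of 19 genes of their list, and 0 of 19 sterol, 7 export and LXR and 10 oxidation genes were called. In goblet-like cells Dgat2 (−0.98 ± 0.24, adjusted p = 0.0459), the oxidation gene Acadm (−0.54 ± 0.13, adjusted p = 0.0456) and Abcg8 (−1.12 ± 0.24, adjusted p = 0.0279) fell, beside 1.95% of all genes. They were 1 of 18, 1 of 9 and 1 of 7 genes of their lists, and 0 of 19 sterol genes were called. In stem-like cells Dgat1 fell (−0.64 ± 0.19, adjusted p = 0.0397), as 1 of 18 genes of its list, beside 1.29% of all genes. The other lists there had 0 of 19 sterol, 5 export and LXR and 8 oxidation genes called. Whether these small counts differed from the shares over all genes was not tested. In Paneth-like and enteroendocrine-like cells edgeR called 0 genes of the 4 lists. At unadjusted p under 0.05 stood 4 and 2 of them, beside 682 of 6595 and 464 of 8167 genes.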

How the data were processed

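Single-cell RNA was measured in 4 libraries of organoids from 2 mice. Per the submitters' processing notes, Cell Ranger 3.0.1 and mm10 were used, and per the file headers the deposited values are whole UMI counts per gene and barcode. The annotation release and the handling of reads that match several genes are not given in the sources used here. From those counts, barcodes with under 500 genes (173) and 70 predicted doublets were removed, taken by Scrublet score at a share set from the number of barcodes, because its automatic threshold marked 21. Cells were clustered with scanpy 1.11.5 and leidenalg 0.10.2 on 2000 variable genes (30 components, 15 neighbours, Leiden resolution 1) and named from marker lists. Classes with at least 10 cells in every library were tested.

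UMIs were summed per library and class and tested with edgeR 4.0.16 (quasi-likelihood, TMM, filterByExpr) in R 4.3.3, with the mouse as a block. The design gives 2 mice, each in both groups, and the libraries were paired by the number in their titles. The deviations of libraries of the same mouse from their group means had a correlation of 0.660 over all cells and of 0.0295 to 0.731 in the classes. DESeq2 1.42.0, limma-voom 3.58.1 and other settings were alternatives. The procedure was tested on simulated data. All 28 listed genes are named, and called genes are given with full values. The genes, the other pathway lists and the tests were chosen with earlier results of these data known. Some genes of the other pathway lists are counted but not reported here by name.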

Additional observations from a re-analysis of the deposited data

Results flagged for a closer look

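The side of the control on which the sterol sum lay was not the same in all classes, though some differences were small. In goblet-like and enterocyte-like cells both knockouts were above the control of the same mouse, and in Paneth-like and cycling-like cells both were below it. The mean log2 ratio of the sterol sum differed by 0.1086 for goblet-like minus cycling-like cells, 0.4069 for goblet-like minus Paneth-like cells, 0.153 for enterocyte-like minus cycling-like cells and 0.4514 for enterocyte-like minus Paneth-like cells. The difference of the sums was not tested, and the gene-wise interaction called 0 of 20 sterol genes in each pair. In cycling-like cells the knockout sums were 99.9% and 99.1% of the control of the same mouse. In goblet-like cells they were 114% and 101%, and the log2 fold change was positive for 9 of 20 sterol genes. Exact 95% intervals of counting error overlapped between knockout and control in both cycling-like pairs and in the goblet-like pair of mouse 2.

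The 31 tuft-like cells entered no test, since too few were retained per library. Their fatty acid sum was 728 and 646 CPM in knockouts 1 and 2 against 404 and 194 CPM in controls 1 and 2, with a knockout mean of 687.2 CPM against a control mean of 299 CPM. These sums rest on 41 and 15 UMIs in knockouts 1 and 2 against 20 and 5 UMIs in controls 1 and 2. Exact 95% intervals were 523 to 988 and 362 to 1066 CPM in knockouts against 247 to 624 and 62.9 to 452 CPM in controls. The sterol sum of the same cells was 1457 and 1206 CPM in knockouts against 1555 and 969 CPM in controls.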

How the results depend on the processing

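Called fatty acid genes numbered 3 in all cells, 3 in cycling-like, 1 in goblet-like and 1 in enterocyte-like cells. Without the replicate block they numbered 0, 0, 0 and 0, and with DESeq2 and the block 1 (Fasn), 0, 0 and 0. Leaving out each library in turn, without the block, gave 0 to 0 in each of these 4. With RLE scaling there were 1 in all cells and 2 in goblet-like cells, and with no filter on low counts 4 in goblet-like cells. All cells gave 1 without enterocyte-like cells and 1 with all deposited barcodes. Goblet-like cells gave 0 at Leiden resolution 2 and 2 without cluster c11, a choice made after seeing the data, as were c3, c10 and the pairs with Paneth-like cells. Sterol genes numbered 0 throughout except 4 lower in Paneth-like cells at Leiden resolution 2 and 1 lower in goblet-like cells without c11. Fads1 in all cells turned to −0.10 without control replicate 2 and reached 0.95 without control replicate 1. Calls over all genes numbered 2394 in all cells, 908 with DESeq2, 1507 with all barcodes, 421 without enterocyte-like cells and 0 without the block. In cycling-like cells they numbered 495, 115 with DESeq2, 846 with RLE and 0 without the block. With DESeq2, 261 were higher and 647 lower in all cells, against 954 and 1440 with edgeR. In goblet-like cells they numbered 410, 65, 673 and 0, and in enterocyte-like cells 187, 21, 184 and 0. With no filter, cycling-like cells had 812 calls, goblet-like cells 1012 and Paneth-like cells 104. Without c3 they numbered 1062 in cycling-like and without c11 1570 in goblet-like cells, and at Leiden resolution 2 goblet-like cells had 86 and Paneth-like cells 279. Stem-like, Paneth-like and enteroendocrine-like cells had 191, 5 and 63 calls, 27, 3 and 7 with DESeq2, and 25, 1 and 0 without the block. The causes were not tested. The fit without the block has 2 residual degrees of freedom and the fit with it 1. Fits that leave out a library keep 1 library in a group, which is assumed to vary like the other group. Depth limits Fads1 and Fads2 in enterocyte-like cells, where Fads1 had 4 UMIs in control 2, and the stem-like and enteroendocrine-like classes, with 15 and 11 cells in control 2.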

Other observations

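The 3 unnamed clusters, c6, c7 and c14, were of low depth (0.263, 0.202 and 0.129 of the library median), and c7 and c14 also had low marker scores. Their cells also held both arms. Their sterol sum was 2066 and 1916 CPM in knockouts 1 and 2 against 1886 and 2129.6 CPM in controls 1 and 2, and their fatty acid sum 906 and 843 CPM in knockouts against 664 and 998 CPM in controls. In both arms the knockout was above the control in mouse 1 and below it in mouse 2.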
